A study of Mus musculus with 6 samples.

Results

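A set of 10 genes of cell adhesion and of epithelial-mesenchymal transition (EMT) were followed in the transcriptome of mouse kidney cells with and without *Pkd1*, and after treatment of the *Pkd1*-deficient mice with a nanoparticle. They were chosen by name, with earlier results of these data known. The 10 genes, out of 55367 symbols with a value in each library, were the cadherins *Cdh1*, *Cdh2*, *Cdh6* and *Cdh16*, the adhesion molecule *Epcam*, and the transcription factors *Snai1*, *Snai2*, *Twist1*, *Zeb1* and *Zeb2*. WT mice (genotype WT, given saline) and ADPKD mice (genotype Pkd1-/-, given saline), a model of autosomal dominant polycystic kidney disease, were compared with ADPKD mice given MMPP (ADPKD+MMPP), a melanin-like nanoparticle coated with polyethylene glycol and loaded with manganese. The deletion was made in male mice with a floxed *Pkd1* and a tamoxifen-dependent Cre recombinase by tamoxifen on postnatal days 25 and 28, and MMPP was injected every 4 days from day 55. The promoter that drives Cre, the strain, and whether WT mice carried Cre or received tamoxifen were not given in the sources used here. Kidney cells that bind the lectin Dolichos biflorus agglutinin (DBA), which marks collecting duct and distal tubule, were collected on beads at the age the labels call Day115 in all groups, with 2 libraries per group, although the labels name whole kidney RNA as well as DBA-positive cells as the input. The number of mice behind a library was not stated, so p-values measure only the spread between libraries, of which a single estimate was shared by all groups.

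Cadherins are transmembrane proteins that join neighbouring cells through calcium-dependent contacts and are held to the actin cytoskeleton by catenins. *Cdh1* (E-cadherin) is the main cadherin of collecting duct and distal tubule junctions, *Cdh2* (N-cadherin) is found in mesenchymal cells and in the proximal tubule, *Cdh6* (K-cadherin) is known from the developing nephron and the proximal tubule, and *Cdh16* (Ksp-cadherin) is restricted to epithelia of kidney and a few other organs. *Epcam* encodes an adhesion molecule on the surface of most simple epithelia. In EMT, repressors of the Snail, Twist and Zeb families lower epithelial genes such as *Cdh1*, and the Snail and Zeb proteins bind the E-box CACCTG, written CAGGTG on the other strand.

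RefSeq promoter windows of GRCm38.p6, from 250 bases before to 50 bases after a transcription start, were given for 5 of the 10 genes (*Cdh6*, *Epcam*, *Snai1*, *Twist1* and *Zeb2*, 8 windows in all). The 2 windows that hold CACCTG or CAGGTG are shown because they are the only ones among these with the letters that Snail and Zeb factors read. The boxes are in capitals, and each window is written 5′ to 3′ on the plus strand, which is the strand of both genes. The *Epcam* window lies at chr17:87635729-87636028 and the *Snai1* window at chr2:167537945-167538244.
Epcam promoter: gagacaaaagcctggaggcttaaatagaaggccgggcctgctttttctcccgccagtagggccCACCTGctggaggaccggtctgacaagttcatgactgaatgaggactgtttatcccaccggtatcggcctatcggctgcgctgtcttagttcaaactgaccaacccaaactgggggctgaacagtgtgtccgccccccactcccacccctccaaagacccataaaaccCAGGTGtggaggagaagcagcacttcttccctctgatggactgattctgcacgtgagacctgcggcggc
Snai1 promoter: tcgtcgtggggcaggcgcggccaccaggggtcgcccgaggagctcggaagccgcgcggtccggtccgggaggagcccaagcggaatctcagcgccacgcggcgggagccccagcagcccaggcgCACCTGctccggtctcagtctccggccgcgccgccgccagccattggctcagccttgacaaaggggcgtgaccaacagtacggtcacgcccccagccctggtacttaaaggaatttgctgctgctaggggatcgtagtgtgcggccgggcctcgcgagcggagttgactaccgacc

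*Epcam* held 2 boxes, which begin 187 and 19 bases before the start, and *Snai1* held 1 box, 126 bases before it. No match was found in the windows of *Cdh6*, *Twist1* and *Zeb2*. Among all 32851 windows of the table, 20.2% held at least 1 box on either strand and 2.88% held at least 2, so that a single box is common and a pair is not. A match is a description of the letters and not of binding.

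The deposited unit was fragments per kilobase of exon scaled to sequencing depth (FPKM), which is per length and so allows levels of different genes to be set side by side. Depths recovered from the steps of the FPKM values ran from 30575739 to 33075063 reads for WT and ADPKD, while the treated libraries had 10910692 and 11807153 reads. The ADPKD+MMPP libraries also stood apart in the form of their values: 7.70 and 8.10% of low read numbers were odd, against 35.4 to 37.3% in the other 4 libraries, and the FPKM sums were 350159 and 351015 against 266194 to 284459. Whether the libraries, the reads or the counting differed was not tested. *Pkd1*, the targeted gene, was at 17.7 and 17.2 FPKM in WT, 7.64 and 8.91 in ADPKD, and 4.34 and 3.99 in ADPKD+MMPP, so the ADPKD libraries were below WT as labelled. Differences are given as log2 fold changes of FPKM + 1 from limma, with Benjamini-Hochberg adjusted p-values over the 14862 genes that reached 1 FPKM in at least 2 libraries, and a gene was called at an adjusted p under 0.05 and a fold change of at least 1.5. *Cdh2* did not pass this filter and the other 9 genes did.

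The 10 genes covered a wide range of levels in WT cells. The epithelial genes were the most abundant, with *Cdh16* at 295 and 291 FPKM, *Epcam* at 110 and 111 and *Cdh1* at 102.05 and 114.99. *Epcam* and *Cdh1* overlapped in these 2 libraries and could not be ordered. The transcription factors followed, with *Snai1* at 13.8 and 13.7 FPKM, *Zeb1* at 12.5 and 9.87, *Zeb2* at 8.34 and 7.99, *Twist1* at 7.25 and 9.66 and *Snai2* at 3.22 and 4.54. *Twist1* overlapped *Zeb2*, and its higher library came close to the lower library of *Zeb1*. *Cdh6*, at 1.06 and 1.26 FPKM, and *Cdh2*, at 0.357 and 0.276, were the least abundant.

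**Figure D1:**
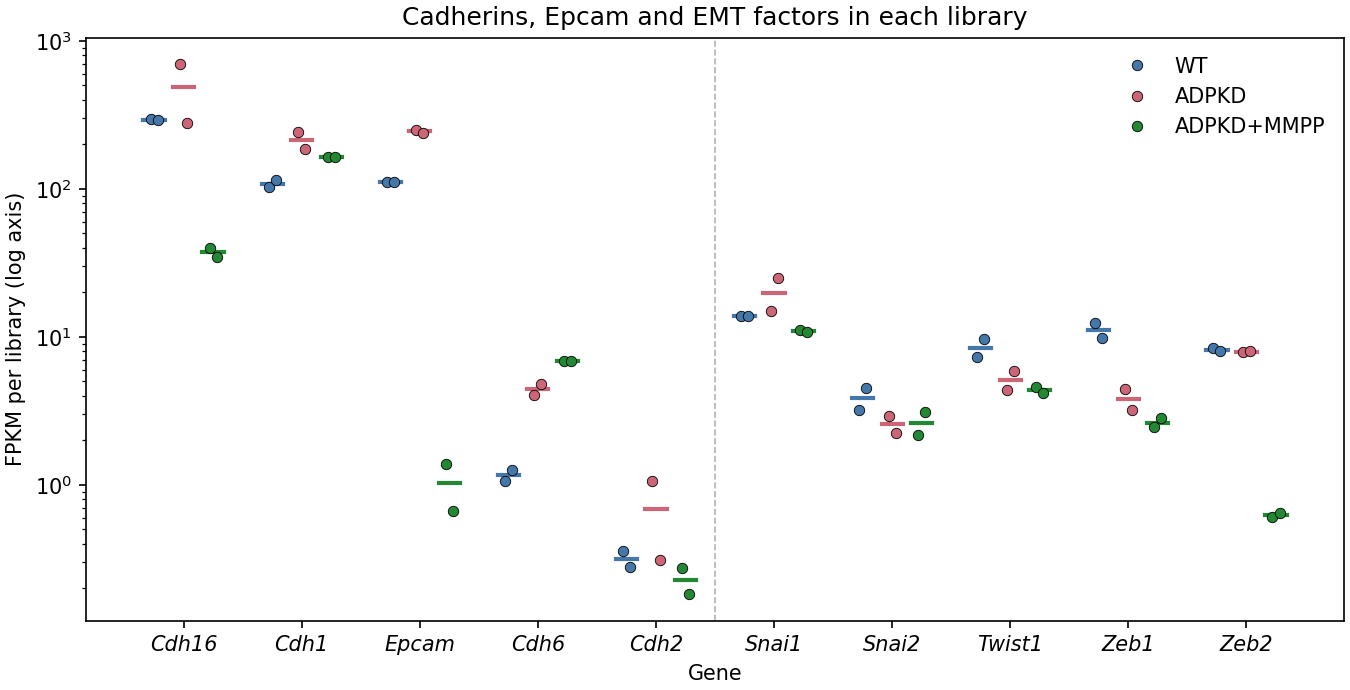
FPKM of the 10 genes (log scale) in the 2 WT, 2 ADPKD and 2 ADPKD+MMPP libraries, 1 point per library and a bar at each group mean. *Epcam* falls from above 200 FPKM in both ADPKD libraries to 1.39 and 0.668 in the ADPKD+MMPP libraries, and *Cdh16* is split between the ADPKD libraries at 694 and 280.

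The first comparison asked how the genes differ between cystic and WT kidney cells. *Cdh1*, *Epcam* and *Cdh6* rose in ADPKD, *Zeb1* fell, and the other 5 tested genes did not pass the test. The 3 genes called higher stood beside 12.0% of all tested genes called higher, and the 1 called lower beside 10.6%. None of *Cdh1*, *Cdh6*, *Cdh16* and *Epcam* was called lower in ADPKD, and the ADPKD values of *Cdh1* and *Epcam* lay above both WT libraries.

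*Cdh1* (GRCm38, chr8:106603351-106670246, 3 annotated transcripts) was at 102.05 and 114.99 FPKM in WT and 242 and 187 in ADPKD. Both ADPKD libraries were higher than both WT libraries, with a log2 fold change of 0.97 (SE 0.15, adjusted p = 0.00903). *Epcam* (chr17:87635979-87651129, 5 transcripts) was at 110 and 111 FPKM in WT and 249 and 239 in ADPKD. The groups did not overlap and the replicates lay close together, with a log2 fold change of 1.13 (SE 0.18, adjusted p = 0.00892). *Cdh6* (chr15:13028701-13173675, 2 transcripts) was at 1.06 and 1.26 FPKM in WT and 4.04 and 4.78 in ADPKD. Its change was the largest rise of the 9 tested genes, at 1.32 on the log2 scale (SE 0.13, adjusted p = 0.00341), from a level near the filter.

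*Cdh16* (chr8:104601911-104624396, 14 transcripts) was at 295 and 291 FPKM in WT and 694 and 280 in ADPKD. The first ADPKD library was far above WT and the second below it, so the groups overlapped, and the log2 difference of 0.59 did not pass the test (95% interval -0.40 to 1.57, adjusted p = 0.317). Without the second ADPKD library the log2 difference of *Cdh16* was 1.24, and without the first it was -0.07, so its direction rested on which ADPKD library was kept. *Cdh2* was at 0.357 and 0.276 FPKM in WT, from 88 and 69 reads, and at 1.06 and 0.309 in ADPKD, from 284 and 80 reads. Only the first ADPKD library stood above the rest, and in a fit with no filter the log2 difference was 0.32 (adjusted p = 0.452).

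Among the transcription factors, *Zeb1*, a zinc-finger repressor of *Cdh1*, was at 12.5 and 9.87 FPKM in WT and 4.42 and 3.20 in ADPKD. Both ADPKD libraries were below both WT libraries, and the log2 fold change was -1.34 (SE 0.18, adjusted p = 0.00632). *Zeb2*, its paralog, was at 8.34 and 7.99 FPKM in WT and 7.85 and 8.04 in ADPKD. The groups overlapped, with a log2 difference of -0.03 and a 95% interval of -0.32 to 0.25. Whether the changes of *Zeb1* and *Zeb2* differ from each other was not tested.

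*Twist1* (chr12:33957671-33959829, 1 transcript), a basic helix-loop-helix factor of mesoderm, was at 7.25 and 9.66 FPKM in WT and 4.36 and 5.86 in ADPKD. Both ADPKD libraries were lower, but the log2 difference of -0.63 missed the threshold (SE 0.19, adjusted p = 0.0565). *Snai2* (chr16:14705852-14709385, 1 transcript), which encodes Slug, was at 3.22 and 4.54 FPKM in WT and 2.90 and 2.22 in ADPKD, a log2 difference of -0.45 (SE 0.21, adjusted p = 0.171). *Snai1* (chr2:167538195-167542814, 1 transcript), which encodes Snail, was at 13.8 and 13.7 FPKM in WT and 14.9 and 24.8 in ADPKD. Both ADPKD libraries were above WT, 1 of them only slightly, and the log2 difference of 0.45 did not pass the test (SE 0.23, adjusted p = 0.192).

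**Figure D2:**
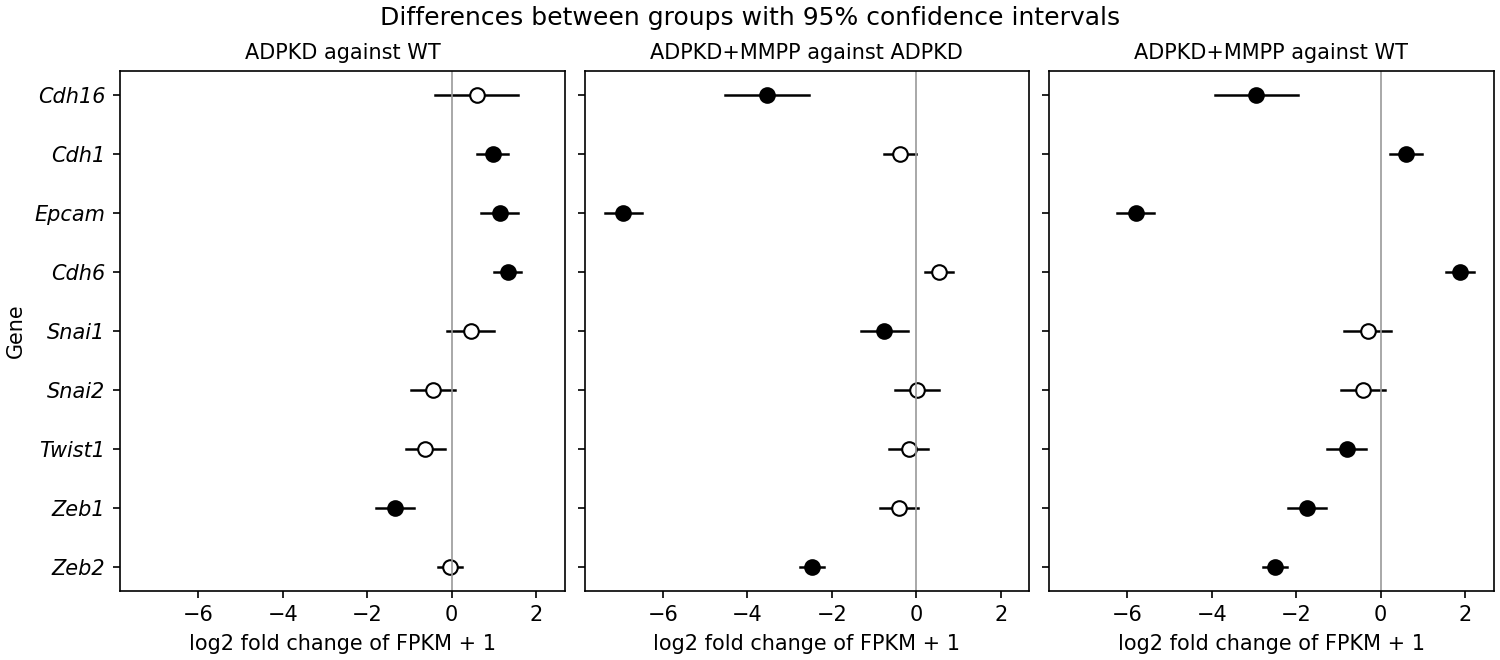
Log2 fold changes of FPKM + 1 with 95% intervals from limma for the 9 tested genes in the 3 comparisons, with filled points for genes called. In ADPKD against WT the points for *Cdh1*, *Epcam* and *Cdh6* lie to the right of 0 and *Zeb1* to the left, and in the comparisons with ADPKD+MMPP the point for *Epcam* lies farthest to the left, at -6.94 and -5.80.

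These differences rested on 4 libraries, while their SE and p-values used a spread pooled over all groups, ADPKD+MMPP included. The groups differed in that spread. The squared difference between replicates, over that of read sampling alone, averaged 92.7 per gene in ADPKD, 24.5 in WT and 4.28 in ADPKD+MMPP. This measure also grows with depth, which was lower in ADPKD+MMPP. The pooled SE can therefore be too small for ADPKD. Without the first WT library *Cdh1* (0.88, adjusted p = 0.0728), *Epcam* (1.13, adjusted p = 0.0698) and *Zeb1* (-1.19, adjusted p = 0.0559) lost their calls, without the second WT library *Cdh1* (1.05, adjusted p = 0.0526) and *Epcam* (1.14, adjusted p = 0.0657) did, without the first ADPKD library *Snai1* was called higher (0.80, adjusted p = 0.00495), and without the second ADPKD library *Twist1* was called lower (-0.81, adjusted p = 0.0389).

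The other genes of these pathways were read from lists. Here and in the lists below, counts stood beside the 12.0% of all tested genes called higher and the 10.6% called lower. Their medians stood beside a median log2 change of 0.03 over all tested genes. Of the 10 epithelial regulators, transcription and splicing factors that keep the epithelial state, 8 were tested, 5 were called higher in ADPKD and none lower, with a median of 0.87. *Elf3*, an ETS factor of epithelia, rose from 47.5 and 45.6 FPKM in WT to 118 and 165 (log2 1.56, adjusted p = 0.00400), and *Esrp2*, an epithelial splicing regulator, from 6.59 and 6.99 to 11.6 and 17.9 (0.99, adjusted p = 0.0179). *Ehf*, another ETS factor, did not pass (0.13, adjusted p = 0.510). Of 13 genes of the adherens junction (catenins, nectins, *Vcl* and *Afdn*) 10 were tested, with 2 higher, none lower and a median of 0.34. The 3 most abundant by the mean over all 6 libraries, *Ctnna1*, *Ctnnb1* and *Jup*, were not called, at 0.01, 0.50 and 0.17. Of 11 desmosome genes 6 were tested, with 3 higher, none lower and a median of 0.62, while the 3 most abundant by the mean over all 6 libraries, *Dsp*, *Pkp4* and *Pkp2*, were not called at 0.56, -0.10 and 0.54. *Pkp3*, named after its values were seen, was above *Pkp2* in both ADPKD libraries, at 17.6 and 26.9 FPKM, and rose from 6.44 and 8.25 in WT (1.46, adjusted p = 0.00999).

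Among 19 other cadherins 6 were tested, with 2 higher, 1 lower and a median of 0.37. *Cdh3* (P-cadherin) rose from 2.44 and 1.58 FPKM in WT to 18.1 and 12.8 in ADPKD (log2 2.45, adjusted p = 0.00262). *Cdh5* (VE-cadherin, of endothelium) fell from 167 and 131 FPKM to 93.3 and 104 (-0.59, adjusted p = 0.0324), and *Cdh24* did not pass (-0.19, adjusted p = 0.470). The second cadherin called higher, named after its values were seen, was *Cdh11* (OB-cadherin, of mesenchymal cells), at 0.305 and 0.541 FPKM in WT and 6.13 and 5.30 in ADPKD (2.24, adjusted p = 0.00174).

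Of 11 other EMT factors 5 were tested, with 1 higher, 1 lower and a median of -0.23. *Sox9*, a factor of renal progenitors and injured tubules, rose from 2.90 and 7.41 FPKM in WT to 34.7 and 64.6 (log2 3.08, adjusted p = 0.00643), *Foxc1* fell from 24.5 and 27.5 to 10.1 and 10.7 (-1.24, adjusted p = 0.00262), and *Foxc2* did not pass (-0.59, adjusted p = 0.193). Of 14 mesenchymal products 12 were tested, with 5 higher, none lower and a median of 0.86. *Sparc* and *Vim* (vimentin), abundant members of that list, did not pass, at 0.18 and 0.33 on the log2 scale. The 5 called higher, named after their values were seen, were *Col3a1* (4.67), *Col1a1* (4.62), *Fn1* (2.81), *Col1a2* (1.51) and *Tnc* (1.01).

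**Figure D3:**
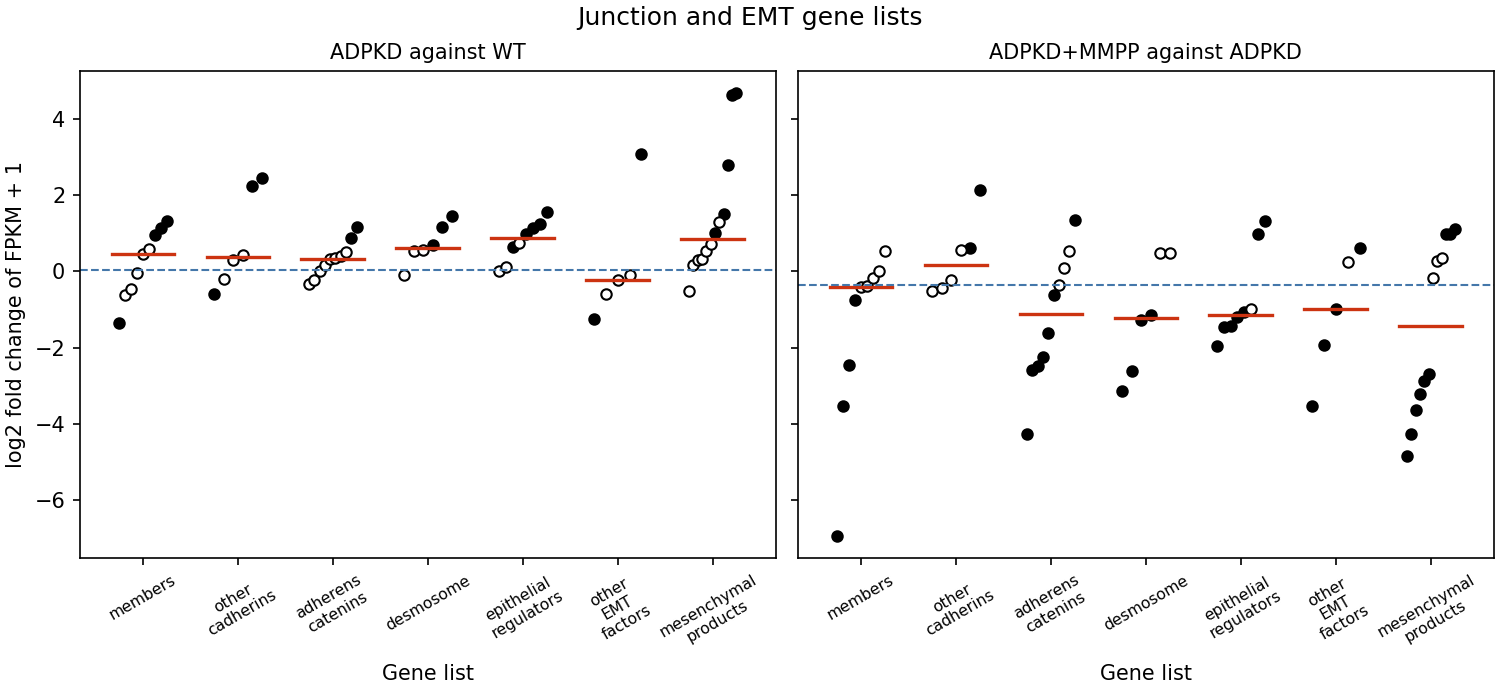
Log2 fold changes of the tested genes of 6 lists and of the 9 tested members in ADPKD against WT and ADPKD+MMPP against ADPKD, 1 point per gene, filled where called, with a bar at the median of each list and a dashed line at the median of all tested genes. In ADPKD against WT the medians of the epithelial regulators (0.87) and mesenchymal products (0.86) both lie above 0.

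Markers of several cell types moved with the ADPKD group, and, in bulk samples, fewer cells of a type and less RNA per cell cannot be told apart. Summed FPKM of 8 endothelial markers was 744 to 881 in WT and 327 to 350 in ADPKD, with 8 of 8 called lower, and that of 5 podocyte markers 900 to 1231 and 90.8 to 205, with 5 of 5 lower. The 7 intercalated cell markers summed to 294 to 317 in WT and 32.9 to 76.3 in ADPKD, with 7 of 7 lower. By contrast, 8 of 9 macrophage and immune markers were higher, with sums of 187 to 241 and 787 to 1139, and so were 7 of 9 fibroblast markers (84.5 to 106 and 159 to 176), with 1 lower. The 10 principal cell markers, the cells that DBA is taken to select, summed to 2119 to 2820 FPKM in WT and to 2532 and 978 in the first and second ADPKD library, the same 2 libraries in which *Cdh16* was 694 and 280. *Aqp2*, the vasopressin-regulated water channel of principal cells and the most abundant of that list, was at 1267 and 1776 FPKM in WT and 1392 and 677 in ADPKD, so the labelled cells were present in each library. By the mean over all 6 libraries, the most abundant markers of the lists that moved were *Cdh5* (above) for endothelium, *Podxl* for podocytes, at 475 and 609 FPKM in WT and 114 and 56.8 in ADPKD, *Atp6v1b1* for intercalated cells, at 61.5 and 58.0 against 28.7 and 7.53 (in WT alone *Slc26a4*, named after its values were seen, was higher, at 83.6 and 109, and at 12.4 and 2.15 in ADPKD), and *Lyz2* for macrophages, at 7.63 and 8.69 against 188 and 224. *Cd74*, also named after its values were seen, was above *Lyz2* in WT, at 176 and 121 FPKM, and was not called in ADPKD, at 656 and 207 (1.33, adjusted p = 0.114). *Pdgfrb*, the most abundant fibroblast marker, was at 91.3 and 65.6 FPKM in WT and 38.9 and 31.4 in ADPKD, while the list it belongs to mostly rose. It made up most of the WT fibroblast sum, so that sum understates the rise of the other markers in the list. Of the remaining lists, 5 of 14 proximal tubule markers and 1 of 5 urothelial markers were higher, and 2 of 7 thick limb and distal markers and 3 of 5 mural markers were lower. All these marker counts stood beside 12.0% of tested genes called higher and 10.6% called lower. *Zeb1*, *Zeb2* and *Twist1* are also expressed by stromal, endothelial or immune cells, and the part of these cell types in their values was not tested.

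**Figure D4:**
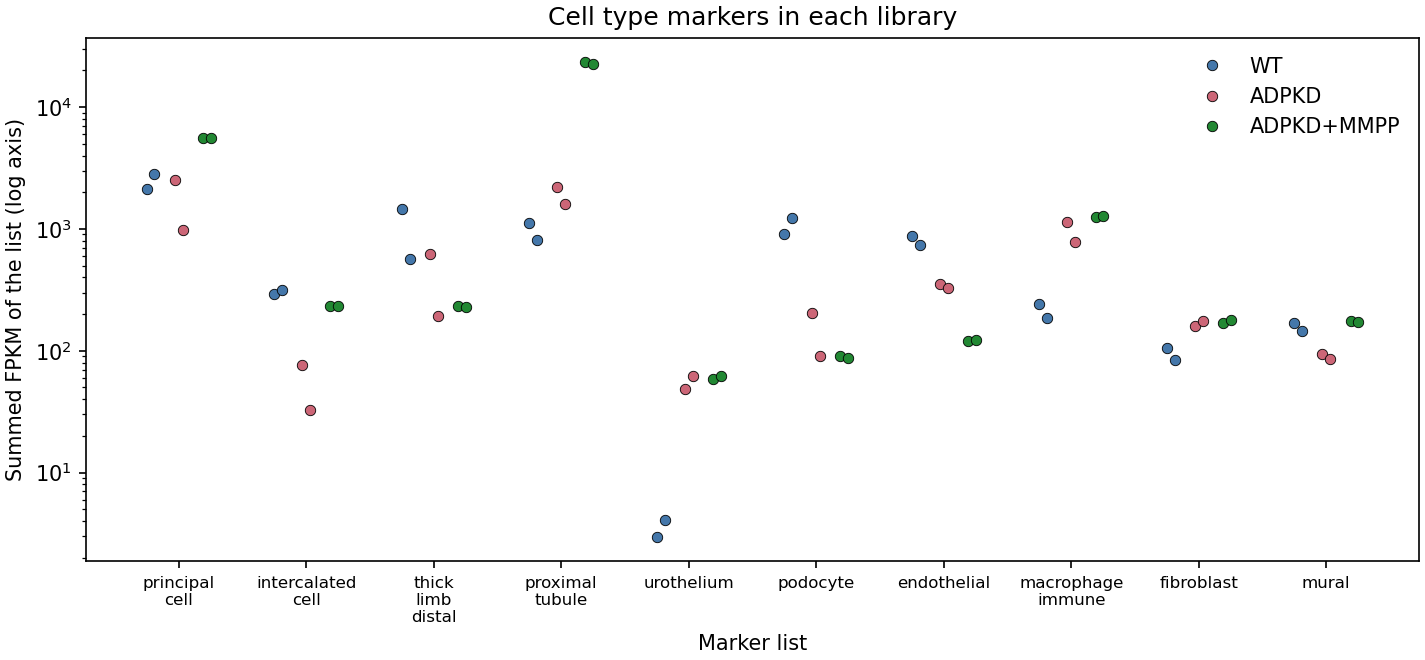
Summed FPKM of each cell type marker list (log scale) in the 6 libraries, 1 point per library. Endothelial, podocyte and intercalated cell sums are lower in ADPKD than in WT, and the proximal tubule sum is 22517 to 23648 FPKM in the ADPKD+MMPP libraries against 808 to 2225 in the other 4.

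The second comparison asked what MMPP treatment changes in ADPKD kidney cells. Of the 9 tested genes *Epcam*, *Cdh16*, *Zeb2* and *Snai1* were lower in ADPKD+MMPP than in ADPKD, and none was called higher. Across all tested genes 42.6% were called lower and 27.7% higher, and the median log2 change was -0.36, so many genes moved. The measured change also followed how a gene's transcripts overlap: over 12375 protein-coding genes the Spearman correlation across genes between the share of exon bases in exactly 1 annotated transcript and the log2 change was 0.65, against 0.05 for ADPKD against WT. Treatment and any difference in how the ADPKD+MMPP libraries or values were made cannot be told apart, and the values of the members are therefore set beside genes of like transcript structure.

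*Epcam*, with 7.06% of its exon bases in exactly 1 transcript, was at 249 and 239 FPKM in ADPKD and at 1.39 and 0.668 in ADPKD+MMPP, from 36 and 16 reads against 18089 and 16802. Both treated libraries were far below the other groups, with a log2 fold change of -6.94 (SE 0.18, adjusted p = 1.02e-05). It had the lowest change of the 619 protein-coding genes with the smallest such shares (up to 9.01%), whose median was -1.70. *Cdh16*, at 13.9%, was at 694 and 280 FPKM in ADPKD and at 39.7 and 34.7 in ADPKD+MMPP, a change of -3.54 (SE 0.40, adjusted p = 0.000440). Its group of 619 genes had a median of -1.64, and 7.75% of them had a lower value than *Cdh16*. Both epithelial genes were also called lower when each library was centred on such groups, at -4.83 and -1.59.

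*Zeb2*, with 29 transcripts and 46.6% of its exon bases in exactly 1, was at 7.85 and 8.04 FPKM in ADPKD and 0.604 and 0.644 in ADPKD+MMPP. The groups were well apart, with a log2 fold change of -2.46 (SE 0.11, adjusted p = 2.32e-05) beside a median of -0.70 in its structure group, of which 6.62% had a lower value. *Snai1*, a gene with a single transcript, was at 14.9 and 24.8 FPKM in ADPKD and 11.2 and 10.7 in ADPKD+MMPP. Its change of -0.76 (SE 0.23, adjusted p = 0.0232) stood beside a median of 1.09 over the 1857 genes of the highest shares, of which 5.22% were lower. The call for *Snai1* was lost without the second ADPKD library, the higher of the pair (-0.41), and without either treated library (-0.78, adjusted p = 0.0841, and -0.73, adjusted p = 0.1001).

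*Cdh1* was at 242 and 187 FPKM in ADPKD and 163 and 164 in ADPKD+MMPP. Both treated libraries were lower, and the log2 difference of -0.38 did not pass the test (SE 0.15, adjusted p = 0.0639). In its structure group, with a median of -1.31, 78.4% of genes had a lower value, and after centring on such groups the sign turned and *Cdh1* was called higher (1.34, adjusted p = 0.000374), while with a common FPKM sum (-0.68, adjusted p = 0.00697) or quantile normalization (-0.67, adjusted p = 0.0104) it was called lower. A direction for *Cdh1* under MMPP thus depended on the processing. *Cdh6* was at 4.04 and 4.78 FPKM in ADPKD and 6.85 and 6.91 in ADPKD+MMPP, a log2 difference of 0.55 (SE 0.13, adjusted p = 0.0108) that stayed under the fold threshold. It was called higher without the second ADPKD library (0.65), but it lay below the median of 1.09 of its structure group, of which 26.7% were lower, and after centring its sign turned (-0.56, not called). *Cdh2* was at 1.06 and 0.309 FPKM in ADPKD and 0.273 and 0.182 in ADPKD+MMPP, the latter from 26 and 16 reads, with a log2 difference of -0.42 in the fit with no filter (adjusted p = 0.243).

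*Zeb1* was at 4.42 and 3.20 FPKM in ADPKD and 2.44 and 2.80 in ADPKD+MMPP, a log2 difference of -0.40 (adjusted p = 0.0914) beside a median of 0.17 in its structure group, with the sign turned under quantile normalization (0.26). *Twist1*, at 4.36 and 5.86 against 4.58 and 4.17 FPKM, had overlapping groups and a difference of -0.18 (95% interval -0.64 to 0.29), with the sign turned under quantile normalization (0.39). *Snai2*, at 2.90 and 2.22 against 2.18 and 3.08 FPKM, also overlapped, at 0.02 (95% interval -0.50 to 0.55), with the sign turned under a common sum (-0.20). *Twist1* and *Snai2*, with a single transcript each, share the structure group of *Snai1* (median 1.09) and were called lower after centring on structure groups, at -1.28 (adjusted p = 0.00120) and -1.08 (adjusted p = 0.00350).

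**Figure D5:**
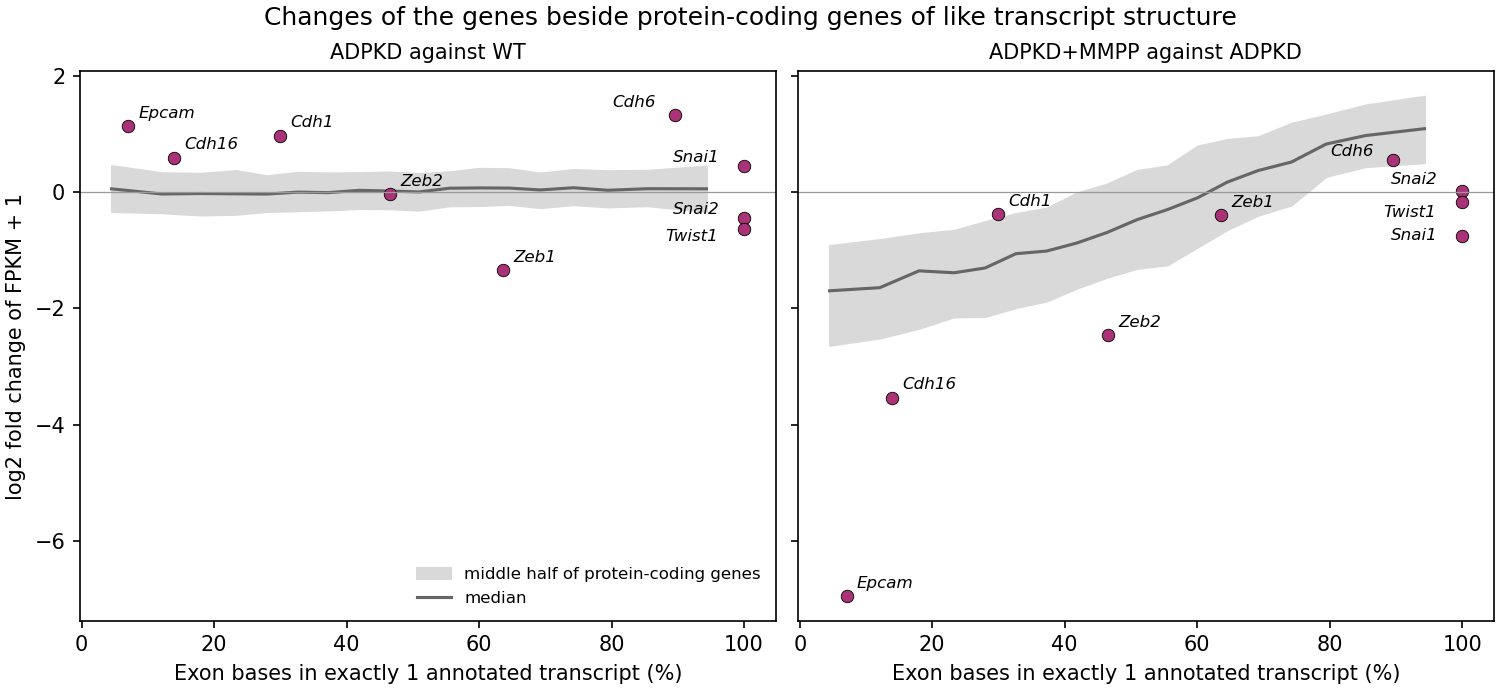
Log2 fold change of the 9 tested genes against the percent of their exon bases in exactly 1 annotated transcript, with the median (line) and the quartiles (band) of protein-coding genes of like share. The line is flat in ADPKD against WT and runs from -1.70 to 1.09 in ADPKD+MMPP against ADPKD, where *Epcam*, *Cdh16*, *Zeb2*, *Snai1*, *Twist1* and *Snai2* lie below the lower quartile of genes of like share.

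The pathway lists moved in both directions after MMPP. Of the 10 tested adherens junction genes 6 were lower and 1 higher, with a median of -1.11. *Ctnnb1*, which links cadherins to actin and also acts in Wnt signalling, was at 99.8 and 124 FPKM in ADPKD and 4.80 and 4.82 in ADPKD+MMPP (log2 -4.28, adjusted p = 1.18e-05), and *Jup* fell by 2.57 (adjusted p = 2.55e-05). The exon bases in exactly 1 transcript were 31.6% for *Ctnnb1* and 49.5% for *Jup*. *Ctnna1* was not called, at -0.35. Of 6 tested desmosome genes 4 were lower (median -1.22), of 8 epithelial regulators 5 were lower and 2 higher (median -1.13), and of 12 mesenchymal products 6 were lower and 3 higher (median -1.43). *Sparc* (-4.84, adjusted p = 1.11e-05) and *Vim* (-2.87, adjusted p = 1.55e-05) were among the lower products. The 3 higher products, named after their values were seen, were *Acta2* (1.11), *Col3a1* (0.99) and *Col1a1* (0.98). These counts stood beside the 42.6% of all tested genes called lower and the 27.7% called higher. The 4 lower desmosome genes had 13.1 to 19.7% of exon bases in exactly 1 transcript, and the other 2 had 72.3 and 86.0%. The 5 lower epithelial regulators had 11.5 to 42.6%, and the 2 higher 50.1 and 93.9%. Protein-coding genes with 9.02 to 15.2% had a median change of -1.64, and those with 15.2 to 20.9% one of -1.35. The part of transcript structure in these list counts was not tested. Of 6 other cadherins 2 were higher and none lower, with *Cdh3*, a gene with 1 transcript, at 68.4 and 73.1 FPKM in ADPKD+MMPP (2.14, adjusted p = 0.000246). Of 5 other EMT factors 3 were lower and 1 higher, and *Sox9* was at 56.2 and 57.8 FPKM (0.26, adjusted p = 0.594).

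Cell type markers stood apart in the same libraries. The 14 proximal tubule markers summed to 22517 to 23648 FPKM in ADPKD+MMPP and 1608 to 2225 in ADPKD, with 11 of 14 called higher and 1 lower. The 10 principal cell markers summed to 5551 to 5573 FPKM in ADPKD+MMPP, with 5 of 9 tested higher and 2 lower. The 7 intercalated cell markers summed to 233 to 234 FPKM, against 32.9 to 76.3 in ADPKD, with 6 of 7 higher and 0 lower. Over all tested genes 27.7% were called higher and 42.6% lower. *Kap*, the most abundant proximal tubule marker, was at 509 and 64.0 FPKM in ADPKD and 12822 and 12116 in ADPKD+MMPP. The 8 endothelial markers summed to 121 FPKM in both treated libraries, with 6 of 8 lower. Those 6 had 1.23 to 82.2% of exon bases in exactly 1 transcript, and *Cdh5* and *Kdr*, not called, had 96.7 and 74.9%. Of the 9 macrophage and immune markers 3 were higher and 5 lower, with a sum of 1243 to 1283 FPKM. *Lyz2* was at 568 and 565 FPKM in ADPKD+MMPP, while *Itgam*, another macrophage marker, was the only listed marker at 0 FPKM in every library of a group, in ADPKD+MMPP. In the remaining lists 4 of 5 tested urothelial markers were higher and 0 lower, and 3 of 5 tested mural markers were higher and 1 lower. Of 7 thick limb and distal markers 2 were higher and 0 lower, of 5 podocyte markers 0 were higher and 3 lower, and of 9 fibroblast markers 3 were higher and 4 lower. The part of these cell types in the values of *Cdh6*, *Epcam*, *Cdh16*, *Snai1* and *Zeb2* was not tested.

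The last comparison set ADPKD+MMPP against WT, and it shares its libraries with the comparisons above. Its log2 changes also followed transcript structure, measured as above, with a Spearman correlation of 0.60 over 12375 protein-coding genes. Here 2 of the 9 tested genes were called higher and 5 lower, beside 29.9% and 43.5% of all tested genes. *Cdh6* was higher by a log2 of 1.87 (SE 0.13, adjusted p = 6.80e-05) and *Cdh1* by 0.59 (SE 0.15, adjusted p = 0.0129). *Epcam* (-5.80, adjusted p = 9.36e-06), *Cdh16* (-2.95, adjusted p = 0.000853), *Zeb2* (-2.50, adjusted p = 1.83e-05), *Zeb1* (-1.74, adjusted p = 0.000295) and *Twist1* (-0.81, adjusted p = 0.00842) were lower. *Snai1* (-0.31, adjusted p = 0.254) and *Snai2* (-0.42, adjusted p = 0.111, with the sign turned to 0.19 under quantile normalization) did not pass. *Cdh1* lost its call with a common FPKM sum (0.20, adjusted p = 0.264), with quantile normalization (0.17, adjusted p = 0.367), without the first WT library (0.50) or without either treated library (0.60 and 0.58), *Twist1* with quantile normalization (-0.33, adjusted p = 0.200), without the second WT (-0.62) or second treated library (-0.75), and *Cdh16* after centring on structure groups (-0.98, adjusted p = 0.0529).

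Ratios within a library, which do not depend on its depth, showed the balance of the adhesion genes. *Cdh1* exceeded *Cdh2* by 286 and 416 times in WT, 228 and 603 in ADPKD and 597 and 903 in ADPKD+MMPP, and the WT and ADPKD ranges overlapped. *Cdh1* exceeded *Cdh6* by 96.1 and 91.3 times in WT, 60.0 and 39.1 in ADPKD and 23.8 in both treated libraries, so the groups were apart. The ratio of *Epcam* to *Cdh1* was 1.08 and 0.963 in WT and 1.03 and 1.28 in ADPKD, near equal in 4 libraries, and 0.00853 and 0.00407 in ADPKD+MMPP. The ratio of *Cdh16* to *Cdh1* was 2.89 and 2.53 in WT, 2.86 and 1.4997 in ADPKD and 0.244 and 0.211 in ADPKD+MMPP. Since transcript structure differs between these genes, the ratios in the treated libraries carry the limit given above. *Zeb2* also overlaps *Zeb2os* on the opposite strand, and *Cdh2* and *Zeb1* overlap antisense or opposite-strand transcripts, whose reads cannot be told apart where counting was unstranded, a setting not given in the sources used here.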

How the data were processed

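In all, 6 kidney libraries were analysed (the labels name both DBA-positive cells and whole kidney as the RNA source), 2 each for WT, ADPKD and ADPKD+MMPP. The authors aligned reads to GRCm38 (mm10) with HISAT2 2.1.0, counted them with featureCounts 1.6.0 and deposited FPKM per gene and library. The annotation release, the strand setting and the step from counts to FPKM were not given in the sources used here. FPKM are not counts, so no count test was used.

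The 14862 genes reaching 1 FPKM in 2 or more libraries entered limma 3.58.1 (R 4.3.3) as log2(FPKM + 1), in a single fit of all 6 libraries with an intensity trend. A pseudocount of 1 understates changes of low genes. Calls needed a Benjamini-Hochberg adjusted p under 0.05 and a fold of 1.5. The fit was tested on simulated data. GENCODE vM21 gave lengths, positions and transcript overlap for 53186 symbols, and FPKM times exon length gave read numbers (tolerance 0.05 reads, up to 20 reads).

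The members and lists were chosen with earlier results of these data known. Named genes are all members, the 3 genes of each pathway list with the highest mean FPKM (1 of these is not reported here), and any gene said to be named after its values were seen. Alternatives covered pseudocount, filter, scaling, trend, groups in the fit, thresholds, a replicate block, leaving out each library, and centring each library within 18 groups of genes of like transcript structure. Precision is set by the 2 libraries per group.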

Additional observations from a re-analysis of the deposited data

How the results depend on the processing

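Of the log2 fold changes of single genes under the alternatives, 411 stayed on the same side of the threshold, 21 lost a call, 22 gained one, and 2 turned their sign and were called, *Cdh1* at 1.34 and *Snai2* at -1.08 in ADPKD+MMPP against ADPKD after centring on transcript structure. The sign also turned without a call in 10 of the 411. In ADPKD+MMPP against ADPKD these were *Cdh6* after centring (-0.56), *Twist1* (0.39) and *Zeb1* (0.26) with quantile normalization, *Twist1* with median-of-ratios scaling (0.0036), *Snai2* with a common sum (-0.20), and *Snai2* (-0.12 and -0.16) and *Twist1* (0.0010) when a library was left out. The others were *Snai2* in ADPKD+MMPP against WT with quantile normalization (0.19) and *Cdh16* in ADPKD against WT without the first ADPKD library (-0.07). In ADPKD+MMPP against ADPKD 1 member was called higher at a pseudocount of 0.1 or 0.5, with median-of-ratios scaling, with no fold threshold and after centring. With quantile normalization 2 were called higher there. Members called lower there went from 4 to 6 with a common sum or centring, and to 3 with no filter, median-of-ratios scaling or only the 2 groups compared. In ADPKD against WT, 2 members were called lower with a filter of 5 FPKM, a common FPKM sum, unadjusted P or centring, and 0 to 2 when each library was left out, while 1 to 3 were called higher. In ADPKD+MMPP against WT, 1 member was called higher with a common sum or quantile normalization, and 1 to 2 when each library was left out, while 7 were called lower with a common sum, 6 after centring and 4 with quantile normalization, against 5. The cause was not tested. The lone library of a group was then assumed to vary like the other groups. Of all genes called in ADPKD+MMPP against ADPKD, 39.4% were higher as deposited and 53.9% after quantile normalization, and against WT 40.8% and 53.0%. The median log2 change of all genes in ADPKD+MMPP against ADPKD was -0.36 as deposited, -0.55 with a common sum, -0.21 with median-of-ratios scaling and 0.10 with quantile normalization. *Snai1* lost its call in ADPKD+MMPP against ADPKD with no filter (adjusted p = 0.0626), median-of-ratios scaling (-0.55), quantile normalization (-0.59) or only these 2 groups in the limma fit (adjusted p = 0.0523). Replicates share only a number: differences between them correlated at 0.13, -0.01 and 0.01 between groups. With a replicate block, members called were 3 higher and 1 lower, 0 and 4, and 2 and 5 in the 3 comparisons, and all genes called were 3268, 10513 and 10972 against 3370, 10446 and 10908. *Cdh2* had at most 26 reads in an ADPKD+MMPP library, so small differences in it were not detectable at this depth.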
